A study of Homo sapiens with 4 samples.

Results

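The MYC, MAX and MXD network is a family of basic helix-loop-helix leucine zipper transcription factors, and its 9 genes described here are MYC, MYCN, MAX, MXD1, MXD3, MXD4, MXI1, MNT and MGA. They were listed by name as members of this family, with earlier results of these data known, and all 9 were among the 20263 genes listed in the count tables. The RNA came from HCT116, a human colorectal carcinoma cell line labelled wild type. Cells had been exposed for 24 hours either to HJ-23 at 30 µM or to its solvent DMSO at 0.1%, with 2 libraries per group. The submitters call HJ-23 a piperine derivative; the titles and design text use that name, while the treatment field of the same samples says HJ-25. Nothing in the labels ties the replicates to separate cultures, so every p-value here rests on a spread between libraries that could be technical.

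MAX is the shared partner of the network. MYC and MYCN dimerize with MAX, bind the E-box CACGTG and activate genes of growth, ribosome production and metabolism. The MXD proteins (MXD1, MXI1, MXD3, MXD4) and MNT dimerize with MAX at the same E-boxes, and recruit SIN3 and histone deacetylases to repress. MGA, which also carries a T-box domain, joins MAX to the variant Polycomb complex PRC1.6, a repressor of germline and meiotic genes. In colorectal cancer MYC is a known target of WNT signalling through beta-catenin and TCF factors, and HCT116 cells carry an activating beta-catenin mutation.

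Total counts ran from 29769568 to 34831207 per library. Of the colorectal epithelial markers, EPCAM, KRT8, KRT18, KRT19, CDH1 and CDX2 were present in every library at 13.4 CPM or more (CPM is the count per 1000000 counts of the scaled library size), KRT20, VIL1 and LGALS4 were at 0.465 CPM or less and CDX1 was listed at 0. Summed over the list of 10 they reached 4094 to 4522 CPM in DMSO and 4049 to 5514 in HJ-23. Among 12 markers of immune, endothelial, fibroblast and liver cells, PTPRC, CD3E, COL1A2 and AFP were at 0 in all libraries, CD68 and COL1A1 were at 34.8 to 63.3 CPM, and the list's sum ran from 96.6 to 104.2 CPM in DMSO and from 96.5 to 111.6 in HJ-23. HJ-23 replicate 2 stood apart: the chi-square of its counts per degree of freedom was 88.2 and 138.9 between it and DMSO replicates 1 and 2, against 57.4 and 66.8 for HJ-23 replicate 1, 36.5 within DMSO and 70.7 within HJ-23. Values without it are given beside the results that it moves most.

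Start regions of 3 members are shown first: those of MNT and MXD4 because they hold the network's own binding letters, CACGTG, and that of MGA because its transcript differed most. RefSeq (GRCh38.p14) start windows, each from 250 bases before to 50 bases after a start, were read for 8 of the 9 members, 13 in all. MYC was left out beforehand and is in none of the member counts. CACGTG, which reads the same on both strands, was found in 2 of the 13 windows, those of MNT and MXD4, and 7.26% of all 35116 such windows held it. In MNT (chr17:2401011-2401310, minus strand) its first base lies 193 bases before the start and in MXD4 (chr4:2262060-2262359, minus strand) 238 bases before it. The first of the 3 MGA windows (chr15:41620974-41621273, plus strand) holds no CACGTG, nor do the other two. Capitals mark CACGTG in these 3 sequences.
MNT: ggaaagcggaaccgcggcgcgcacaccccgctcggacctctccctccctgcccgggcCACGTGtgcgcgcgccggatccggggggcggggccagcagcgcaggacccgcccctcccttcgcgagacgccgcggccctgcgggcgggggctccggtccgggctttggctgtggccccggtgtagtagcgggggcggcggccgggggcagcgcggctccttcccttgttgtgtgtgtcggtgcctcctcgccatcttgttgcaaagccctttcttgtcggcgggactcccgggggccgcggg
MXD4: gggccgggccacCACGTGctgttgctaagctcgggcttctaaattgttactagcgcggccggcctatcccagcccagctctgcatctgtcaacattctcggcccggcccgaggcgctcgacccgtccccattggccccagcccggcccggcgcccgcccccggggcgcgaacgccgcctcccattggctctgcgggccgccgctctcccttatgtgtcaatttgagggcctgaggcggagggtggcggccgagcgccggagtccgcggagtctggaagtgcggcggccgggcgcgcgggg
MGA: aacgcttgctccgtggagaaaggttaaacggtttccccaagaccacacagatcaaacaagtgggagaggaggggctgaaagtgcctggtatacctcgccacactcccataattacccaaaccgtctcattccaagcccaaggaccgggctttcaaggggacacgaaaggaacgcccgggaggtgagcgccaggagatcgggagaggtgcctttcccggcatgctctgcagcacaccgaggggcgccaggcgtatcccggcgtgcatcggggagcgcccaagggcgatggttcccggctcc

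MXI1 is a known hypoxia-inducible gene, and ACGTG (searched on both strands, and contained in CACGTG) is a core of the element that hypoxia-inducible factors bind. It was found in 1 of the 3 MXI1 windows, chr10:110209981-110210280 on the plus strand, in 5 of the 13 member windows and in 21.4% of all windows. The other core searched, GCGTG, had 1 match in that window and 2 in the MXI1 window chr10:110225746-110226045, and 36.5% of all windows held it. Capitals mark ACGTG here, read on the opposite strand.
MXI1: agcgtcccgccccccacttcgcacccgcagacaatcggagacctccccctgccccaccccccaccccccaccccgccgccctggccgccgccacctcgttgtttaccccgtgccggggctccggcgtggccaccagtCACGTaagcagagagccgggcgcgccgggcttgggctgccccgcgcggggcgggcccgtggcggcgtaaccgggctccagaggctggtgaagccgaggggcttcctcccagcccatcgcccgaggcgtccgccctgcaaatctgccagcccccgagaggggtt
These matches are letters in a window, with no binding measured.

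Between the groups, the network's smallest p-values belonged to 2 MAX-binding proteins other than MYC: MGA was lower than in DMSO in both HJ-23 libraries and MNT higher in both. MXI1 and MYC were also lower in both, and MAX, MXD1 and MXD4 overlapped. None of these differences passed edgeR's quasi-likelihood test adjusted over all 14062 genes tested, which called 0.0853% of genes. At an unadjusted p below 0.05, edgeR had 3 of the 8 tested members (MGA, MNT and MXI1), against 12% of all genes, and DESeq2 called 1 member, MGA, after adjustment, against 2.31% of genes. The groups did not overlap for 5 of the 8, 1 higher (MNT; 24.8% of all genes) and 4 lower (MYC, MXI1, MXD3 and MGA; 21.2% of all genes), where 46% of all genes did not overlap in either direction.

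**Figure D1:**
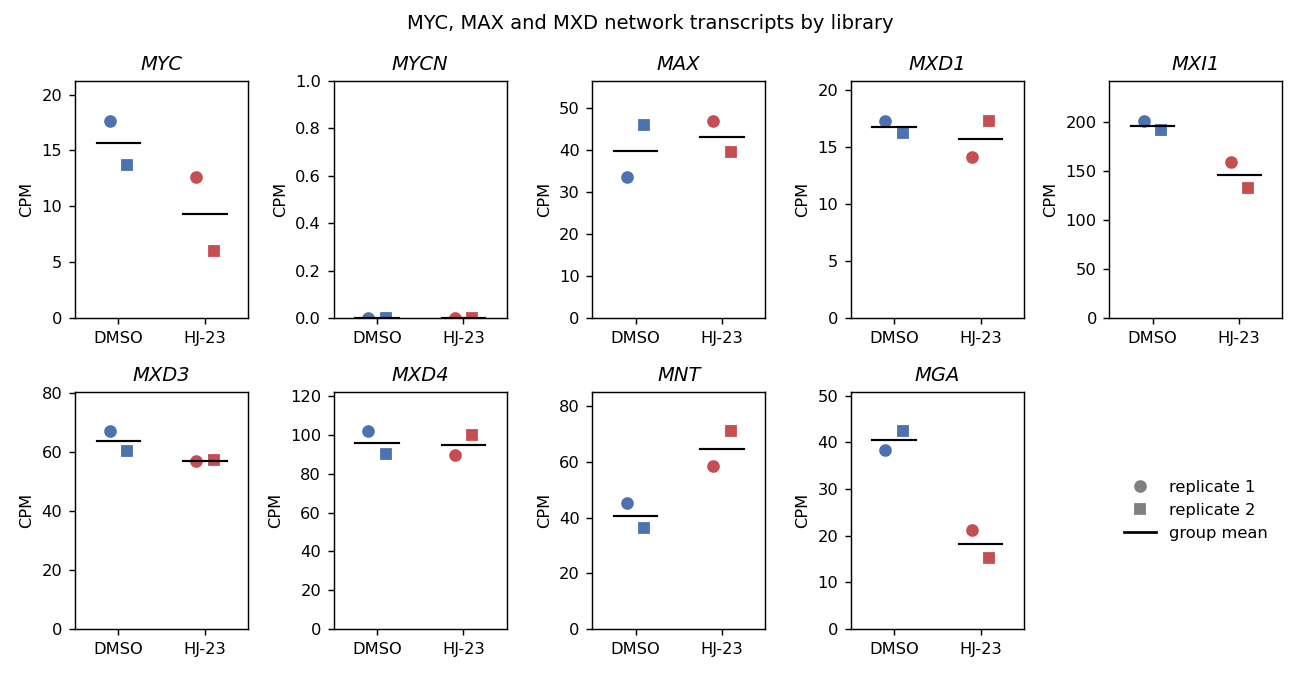
Transcript level of each network member in CPM (linear axis from 0, scaled for each gene), with a circle for replicate 1, a square for replicate 2 and a line at the mean of the 2 libraries. MGA sits at 38.4 and 42.3 in DMSO and at 21.1 and 15.3 in HJ-23, MNT moves the other way, and MYCN is at 0 throughout.

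MYC, the activator that gives the network its name, was sparsely counted. In DMSO it was at 17.7 CPM in replicate 1 (549 counts) and 13.7 CPM in replicate 2 (400 counts). In HJ-23 it was at 12.7 CPM in replicate 1 (449 counts) and 5.99 CPM in replicate 2 (206 counts). HJ-23 replicate 1 lay just under DMSO replicate 2, and HJ-23 replicate 2 was well under all others. The means were 15.7 ± 2.83 and 9.32 ± 4.72 CPM (SD, n = 2 per group), with a log2 change of -0.75 (SE 0.37, edgeR adjusted p 0.469). This difference leaned on 1 library: the log2 change was -0.33 when HJ-23 replicate 2 was left out (edgeR adjusted p 0.668) and -1.41 when replicate 1 was left out instead (edgeR adjusted p 0.136). In DMSO, the MYC level stood at the 36.7th percentile of the genes tested by CPM. In this bulk RNA, fewer cells with the transcript and less of it per cell cannot be told apart.

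MYCN, the MYC paralog of neural and embryonic tissues, had 0 counts in all 4 libraries and was not tested. A count of 0 allows up to 6 counts in a library, or 3 read pairs, which is 0.169 to 0.205 CPM. MYCNOS, the antisense gene that overlaps MYCN, was also at 0.

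MAX, the partner that the others share, was at 33.5 and 46.0 CPM in DMSO and 47.0 and 39.5 CPM in treated cells. The groups overlapped, and the DMSO libraries differed from each other by more than the group means did. The log2 change was 0.12 (SE 0.21, edgeR adjusted p 0.842).

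Among the MXD repressors, MXI1 had the largest difference. MXI1, the MXD family member also known as MXD2, was at 201.3 and 191.2 CPM in DMSO and 158.6 and 132.6 CPM in treated cells. Both treated libraries lay under both controls, by a log2 change of -0.43 (SE 0.15, edgeR adjusted p 0.367), or -0.33 without HJ-23 replicate 2. MXD1, which appears as cells leave the cycle and differentiate, was at 17.3 and 16.3 CPM in DMSO and 14.2 and 17.3 CPM in treated cells, with overlapping groups. MXD4, a further antagonist of MYC, was at 102.0 and 90.2 CPM in DMSO and 89.6 and 99.9 CPM in treated cells, also overlapping. Their log2 changes were -0.09 (SE 0.18) for MXD1 and -0.02 (SE 0.15) for MXD4.

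MXD3, the member known from S phase of the cycle, was at 66.9 and 60.2 CPM in DMSO and 56.9 and 57.1 CPM in treated cells. The treated libraries were nearly equal and just under the controls (log2 change -0.16, SE 0.15, edgeR adjusted p 0.679). Its value is uncertain, because in GENCODE 29 its exons share 2084 bases with the exons of RAB24, on the same strand, and PRELID1, on the opposite strand. No source used here gives the strand setting of the counting, which bears on the PRELID1 overlap and not on that of RAB24. PRELID1 was higher in both HJ-23 libraries (60.3 and 52.8 CPM in DMSO, 68.5 and 85.7 in treated cells), and RAB24 overlapped between groups. Their part in the MXD3 value was not tested. Smaller exon overlaps with antisense genes exist for MAX (184 bases), MXI1 (205 bases) and MGA (510 bases), and MXD1 shares 237 bases with SNRNP27.

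MNT, the repressor present in proliferating and resting cells alike, was the single member higher in both treated libraries. It was at 45.2 and 36.1 CPM in DMSO and 58.4 and 71.0 CPM in treated cells. The groups did not overlap, and the means were 40.7 ± 6.43 and 64.7 ± 8.93 CPM (SD, n = 2), a 1.59-fold ratio. The log2 change was 0.67 (SE 0.19, edgeR adjusted p 0.310), at the 95.4th percentile of all genes tested. DESeq2 gave an adjusted p of 0.119. Over the 12 other settings and left-out libraries listed with the methods MNT was not called, and its log2 change ran from 0.46 to 0.84. In GENCODE 29, 1065 bases of MNT exons overlap an antisense gene that is not among the listed genes, and reads from it could have been counted as MNT if counting ignored strand.

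MGA, the MAX partner of PRC1.6, had the largest difference of the network. It was at 38.4 and 42.3 CPM in DMSO and 21.1 and 15.3 CPM in treated cells. The gap between the groups was wider than the spread within either, with means of 40.4 ± 2.77 and 18.2 ± 4.13 CPM (SD, n = 2), or 0.45 of the DMSO level. The log2 change was -1.15 (SE 0.21), at the 1st percentile of all genes tested, and the unadjusted p ranked 104 of 14062. The adjusted p was 0.206 with edgeR and 4.09e-04 with DESeq2. The direction held with each library left out in turn. The MGA log2 change was -1.22 and -1.10 without DMSO replicates 1 and 2, and -1.42 and -0.96 without HJ-23 replicates 1 and 2.

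**Figure D2:**
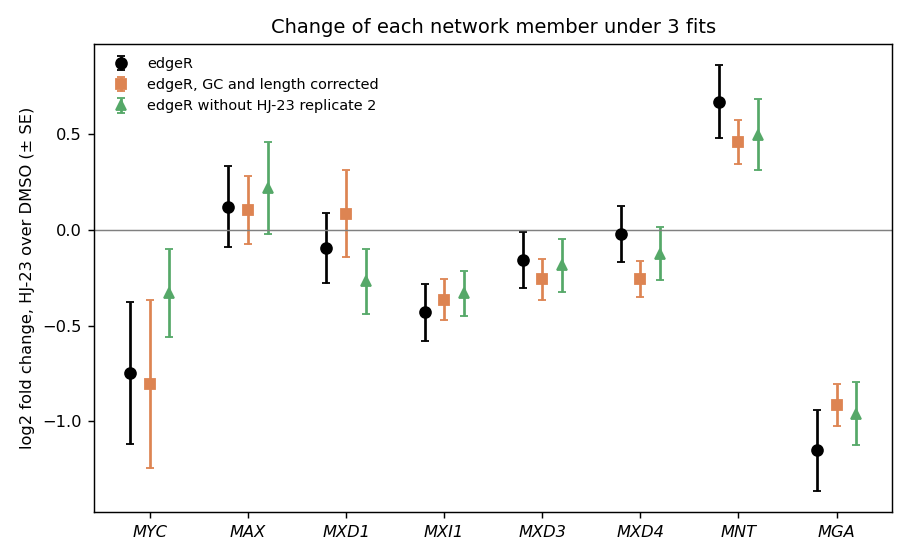
Log2 change of HJ-23 over DMSO for the 8 tested members, with bars of 1 standard error, from edgeR on all libraries (circles), with a GC and length correction (squares) and without HJ-23 replicate 2 (triangles). MGA stays below -0.9 and MNT above 0.4 in all 3 fits, while MYC goes from -0.75 to -0.33 when HJ-23 replicate 2 is left out.

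The members' fold changes stood beside a trend over all genes: GC-rich transcripts tended to be higher in HJ-23 and long or AT-rich transcripts lower. Across the 14047 genes with an annotated transcript, the log2 change and GC content had a Spearman rho of 0.38 and a Pearson r of 0.29; genes share their libraries and are not independent replicates. Genes under 45% GC had a median log2 change of -0.13 (4682 genes), genes above 60% GC one of 0.21 (2532 genes), and genes with transcripts over 8 kb one of -0.24 (1032 genes). MGA has a 12042-base transcript of 43.1% GC and MNT a 4996-base transcript of 61.4% GC. With a correction for both properties the log2 change of MGA was -0.91 (SE 0.11, edgeR adjusted p 0.0687) and that of MNT 0.46 (SE 0.12, edgeR adjusted p 0.172). MXD4, at 64.0% GC, went from -0.02 to -0.26, MXD1, at 42.7% GC, from -0.09 to 0.08, and MYC, at 53.9% GC, from -0.75 to -0.80. No member passed after the correction, which called 0.256% of genes.

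**Figure D3:**
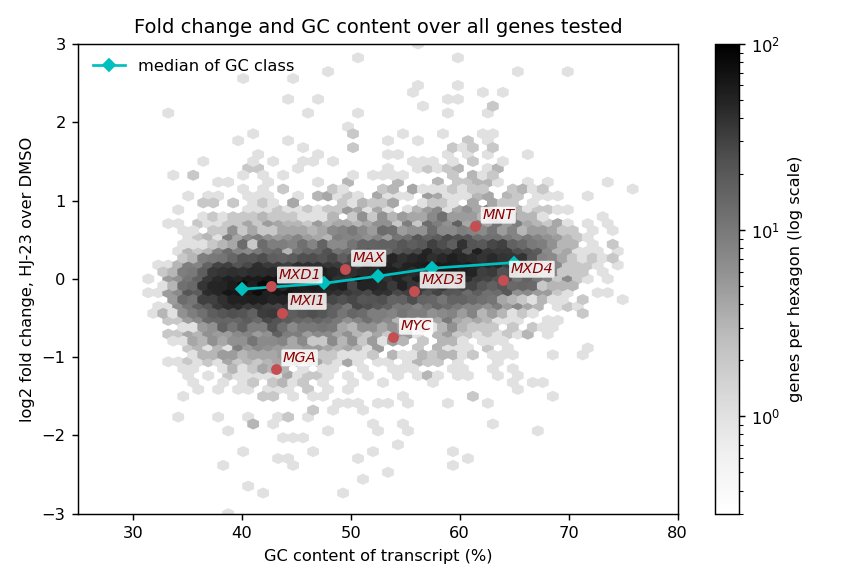
Log2 change against transcript GC content for the genes tested, as hexagons shaded by the number of genes, with the median of each of 5 GC classes as diamonds and the 8 tested members as labelled points; 20 genes beyond ±3 are not shown. The class medians climb from -0.13 to 0.21, and MGA and MYC lie well under the median of their class.

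Levels of different genes can be set side by side only per length. On the scale of CPM per kb of transcript, the DMSO means ran from MXI1 (56.5) through MXD3 (28.0), MXD4 (23.7), MAX (18.6), MNT (8.14), MYC (6.62) and MGA (3.35) to MXD1 (3.01). In DMSO the libraries of MNT and MYC overlapped each other, and the other neighbours in this order did not overlap. In HJ-23 the means were 42.0 for MXI1, 25.1 for MXD3, 23.4 for MXD4, 20.2 for MAX, 12.96 for MNT, 3.94 for MYC, 2.82 for MXD1 and 1.51 for MGA, where MYC and MXD1 overlapped. The place of MGA depends on the transcript length used: by the longest transcript it was already last in DMSO, at 2.80 against 3.01 for MXD1, with overlapping libraries.

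Within a library, MNT transcripts outnumbered MYC transcripts per kb, and by more in both treated libraries. The ratio of MNT to MYC (both in CPM per kb) was 1.21 and 1.25 in DMSO and 2.18 and 5.62 in HJ-23. The ratio of MGA to MAX was 0.204 and 0.164 in DMSO and 0.0797 and 0.0687 in HJ-23. That of MYC to MAX was 0.477 and 0.269 in DMSO and 0.244 and 0.137 in HJ-23, so that DMSO replicate 2 was closer to HJ-23 replicate 1 than to DMSO replicate 1. The 5 MXD and MNT repressors summed came to 16.7 and 19.7 times MYC in DMSO and to 20.0 and 41.6 times in HJ-23, where replicate 1 was close to the controls. These ratios are descriptions of 4 libraries and were not tested.

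**Figure D4:**
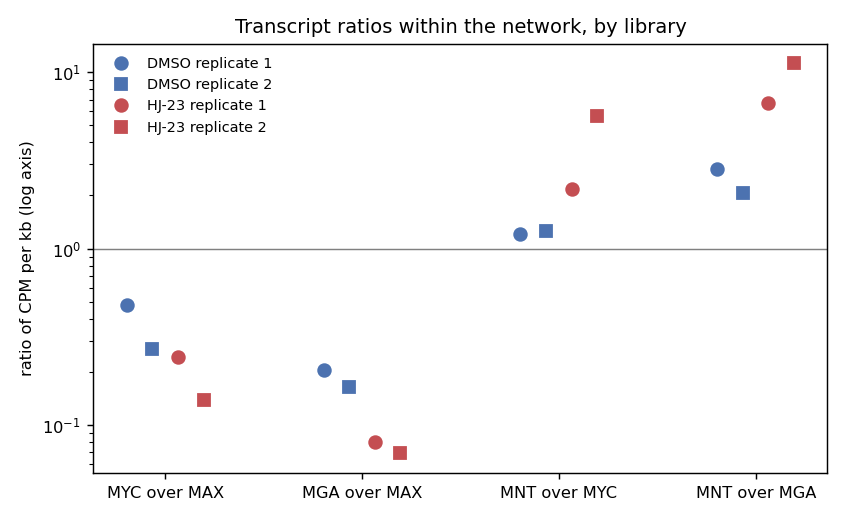
Ratios of transcript levels in CPM per kb within each library (log axis), in blue for DMSO and red for HJ-23, with circles for replicate 1 and squares for replicate 2. MNT over MGA is 2.84 and 2.06 in DMSO and 6.67 and 11.2 after HJ-23, a pair of members that went in opposite directions.

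By distance between log2 CPM profiles over the 4 libraries, centred on DMSO, the 3 genes most like MYC among 10087 were CNOT6L (distance 0.16), TPD52 (0.24) and PDPK1 (0.26). CNOT6L, a subunit of the CCR4-NOT deadenylase, was at 62.5 and 55.5 CPM in DMSO and 48.7 and 22.03 CPM in treated cells. Its low HJ-23 replicate 2 follows from picking genes by likeness to MYC. The 3 most like MGA were HERC3 (distance 0.09), PEAK1 (0.20) and KMT2A (0.22). KMT2A, a histone H3 lysine 4 methyltransferase, was at 107.1 and 127.4 CPM in DMSO and 59.7 and 51.4 CPM in treated cells.

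Partners, regulators and targets of the network were read from the same fit. Over these lists edgeR called 0 genes after adjustment, and DESeq2 called 7 higher (1.19% of all genes) and 4 lower (1.11% of all genes). Among the remaining relatives of the family, MYCL, the third MYC paralog, was at 14.3 and 13.4 CPM in DMSO and 19.9 and 20.4 in treated cells (log2 change 0.54, SE 0.16, edgeR adjusted p 0.330). MLX, the partner of the glucose-sensing MondoA and ChREBP proteins, and MLXIP, which encodes MondoA, had log2 changes of 0.14 and 0.21, and 3 of these 4 genes were higher in both treated libraries, as were 24.8% of all genes. Of the MondoA targets, the arrestin ARRDC4 was at 370.0 and 387.5 CPM in DMSO and 138.2 and 87.1 CPM in treated cells (log2 change -1.75, SE 0.24; adjusted p = 0.112 with edgeR and 2.05e-09 with DESeq2). ARRDC4 passed edgeR's test with a block for replicate number (adjusted p = 1.23e-09) and after correction for GC content and length (0.0389). It did not pass with other size factors, the newer quasi-likelihood form, no filter or a filter at 10 CPM (edgeR adjusted p 0.0552 to 0.137). The block and the correction together gave an edgeR adjusted p of 0.0735. Its log2 change was -1.78 and -1.74 without DMSO replicates 1 and 2, and -2.14 and -1.48 without HJ-23 replicates 1 and 2. TXNIP was listed at 0 in all 4 libraries, and whether the zeros of TXNIP and CDX1 are true absence could not be settled.

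Of 9 other PRC1.6 subunits, 4 were higher (24.8% of all genes) and 0 lower (21.2% of all genes) in both treated libraries. For these subunits the median log2 change was 0.15 (0.01 without DMSO replicate 2; all genes 0.01), and 0 passed with edgeR, at an unadjusted p below 0.05 or with DESeq2. YAF2, an adaptor of the RING proteins, was at 8.56 and 9.43 CPM in DMSO and 12.8 and 11.1 in treated cells, and L3MBTL2, a histone reader of the complex, at 18.8 and 17.9 and at 22.9 and 25.05. MGA itself, at -1.15, was outside the range of its complex, whose lowest member was E2F6, the DNA-binding repressor (log2 change -0.29, SE 0.28).

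The SIN3 and NCOR corepressors, which MXD and MNT proteins use, had a median log2 change of -0.17 over 16 genes (-0.08 with the GC and length correction and -0.10 without HJ-23 replicate 2). In both treated libraries 7 were lower (21.2% of all genes) and 2 higher (24.8% of all genes). The scaffold SIN3A was at 83.3 and 98.6 CPM in DMSO and 68.4 and 56.3 in treated cells (log2 change -0.54, SE 0.17). ING1 separated the groups mainly through DMSO replicate 1 (106.4 CPM, against 52.46 in DMSO replicate 2 and 44.6 and 51.5 in HJ-23), and it passed edgeR's test when DMSO replicate 2 was left out (log2 change -1.17, adjusted p = 0.0152) and was at -0.13 when DMSO replicate 1 was left out.

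Coactivators and partners of MYC went in both directions, with a median of 0.07 over 18 genes (-0.02 with the GC and length correction and 0.01 without HJ-23 replicate 2). TRRAP, the scaffold of MYC-recruited acetyltransferases, was at 133.2 and 139.2 CPM in DMSO and 96.3 and 98.2 in treated cells (log2 change -0.49, SE 0.13). BPTF, the remodeler subunit, was lower in both treated libraries (-0.82, SE 0.23), while WDR5, a chromatin protein that MYC binds, was higher in both (0.51, SE 0.17). None of these passed after adjustment with edgeR or DESeq2.

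Genes for turnover of the MYC protein had a median of -0.01 over 18 genes. USP36, a nucleolar deubiquitinase that stabilizes MYC, was at 80.7 and 69.2 CPM in DMSO and 99.9 and 103.6 in treated cells (0.44, SE 0.15). FBXW7, the ligase that recognizes phosphorylated MYC, had a log2 change of -0.02 (SE 0.17). Of 14 tested factors that act on MYC transcription, BCL9L, a beta-catenin coactivator, was at 234.1 and 213.2 CPM in DMSO and 299.2 and 366.0 in treated cells (0.57, SE 0.16), and TCF7L2, the main TCF factor of the colon, at 113.5 and 124.4 and at 105.4 and 88.8 (-0.29, SE 0.15). LEF1 was listed at 0 in all libraries.

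Genes known to be activated by MYC mostly had positive log2 changes. Of 63 tested, 53 had a positive log2 change, against 51% of all genes; the median was 0.28, against 0.01 over all genes, and lay between 0.22 and 0.32 over the 12 other settings and left-out libraries. Both treated libraries were above both controls for 31 (24.8% of all genes) and below for 5 (21.2% of all genes). At an unadjusted p below 0.05, edgeR had 17 higher and 3 lower, against 6.77% and 5.25% of all genes, and DESeq2 called 5 higher and 2 lower after adjustment (1.19% and 1.11% of all genes). The list's summed level did not separate the groups (6827 and 7268 CPM in DMSO, 7254 and 7197 in HJ-23).

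Among these targets IPO4, an importin, was at 10.7 and 8.31 CPM in DMSO and 27.2 and 33.4 in treated cells (log2 change 1.68, SE 0.21; adjusted p = 0.0985 with edgeR and 9.80e-08 with DESeq2). IPO4 passed edgeR's test with the block for replicate number (adjusted p = 5.19e-06), after correction for GC content and length (0.0389) and with no filter (0.0463). It did not pass with other size factors, the newer quasi-likelihood form or a filter at 10 CPM (edgeR adjusted p 0.0889 to 0.109). The block and the correction together gave an edgeR adjusted p of 0.166. Its log2 change was 1.87 and 1.48 without DMSO replicates 1 and 2, and 1.80 and 1.498 without HJ-23 replicates 1 and 2. MYBBP1A, a nucleolar protein, and TFAP4, a transcription factor, had log2 changes of 0.92 (SE 0.20) and 0.88 (SE 0.17), and both passed with DESeq2. In the other direction, the largest changes among the 5 targets below both controls were those of HK2, LDHA and PTMA. HK2, the hexokinase, was at 246.6 and 205.9 CPM in DMSO and 129.5 and 151.0 in treated cells (-0.69, SE 0.16). LDHA, lactate dehydrogenase, was at -0.58 (SE 0.14) and PTMA, prothymosin, at -0.37 (SE 0.13). HK2 and LDHA passed with DESeq2 (adjusted p = 0.0285 and 0.0423).

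Genes known to be repressed by MYC split evenly, 4 of 8 positive, with a median of 0.03. CDKN1A, the cell cycle inhibitor p21, was at 289.6 and 230.6 CPM in DMSO and 468.4 and 660.0 in treated cells (1.12, SE 0.22), and the stress gene GADD45A had a log2 change of 0.92 (SE 0.21). CDKN1C, the inhibitor p57, was at 69.7 and 65.9 CPM and at 32.6 and 44.0 CPM (-0.82, SE 0.19), and NDRG1, also a hypoxia-responsive gene, had a log2 change of -0.56 (SE 0.15). The first 3 passed with DESeq2 (adjusted p = 9.44e-04, 0.0153 and 0.0166) and none in edgeR's main test. With a block for replicate number, edgeR's test called CDKN1A (adjusted p = 0.00201) and GADD45A (0.0193), and not CDKN1C (0.0698). With the block and the GC and length correction together, none of these 3 passed (edgeR adjusted p 0.200 to 0.318). CDKN1A passed edgeR's test without DMSO replicate 1 (adjusted p = 0.00646) and not without any other library (0.136 to 0.390), and CDKN1C with the GC and length correction (log2 change -1.03, adjusted p = 0.0389). Without HJ-23 replicate 2 the log2 change was 0.82 for CDKN1A and 0.60 for GADD45A.

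**Figure D5:**
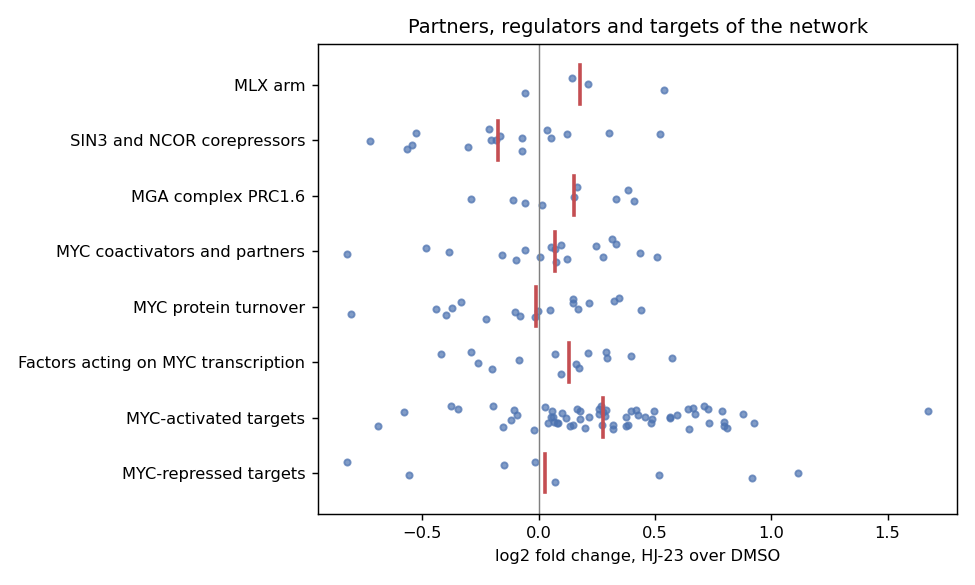
Log2 change of HJ-23 over DMSO for each tested gene of 8 lists (points, spread vertically for legibility) with the list's median as a red line. The row labelled MLX arm includes MYCL, a MYC paralog (log2 change 0.54). The MYC-activated targets lie mostly to the right of 0, with a median of 0.28, and the SIN3 and NCOR corepressors have a median of -0.17.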

How the data were processed

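Each library has a table of whole-number counts per Ensembl gene, deposited by the authors without normalization, as the values show. Tools listed in the submitters' processing notes are HISAT2, RSEM, bedtools, Trimmomatic and FastQC; no source used here gives their versions, roles, the strand setting or the genome build. Counts from 1 to 8 were even in 69.6% to 72.3% of cases, which points to reads, not read pairs, having been counted. Groups and replicate numbers come from the titles; the treatment field names HJ-25 where titles and design text name HJ-23.

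The main test was the robust, legacy quasi-likelihood F-test of edgeR 4.0.16 (R 4.3.3) after TMM scaling and filterByExpr, with group as the only term and 2 residual degrees of freedom. Benjamini-Hochberg adjustment ran over 14062 genes (threshold 0.05). Log2 changes are treated over control, and each SE is the change over the root of F. CPM is the count over the TMM-scaled library size, times 1000000, with SD over 2 libraries. Alternatives were DESeq2 1.42.0, other size factors, the newer quasi-likelihood form, other filters, a replicate block, a loess correction for GC content and length, and leaving out each library. Symbols were found for all but 39 identifiers, and transcript lengths and GC content came from GENCODE 29 (the longest transcript linked to a curated RefSeq mRNA). The fits were tested on simulated data. The simulated counts held no GC or length trend, so they cannot show how the correction acts on one. The count of 0 limit covers counting error only.

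Members and lists were chosen with earlier results of these data known. Genes named from a list had a mean of at least 10 CPM, groups that do not overlap and the largest difference, up to 3 in each direction; E2F6, FBXW7, LEF1 and TXNIP are named outside that rule, after their values were seen. Some genes that this rule names are not reported here.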

Additional observations from a re-analysis of the deposited data

How the results depend on the processing

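Over all genes, edgeR called 8 higher and 4 lower, DESeq2 161 and 150, edgeR with no filter 18 and 13, with a filter at 10 CPM 0 and 0, with the GC and length correction 23 and 13, with the replicate block 136 and 158, and with the block and the correction together 0 and 0. Leaving out 1 library gave 0 to 112 higher and 0 to 161 lower calls. Among the network members, 0 were called in the main test; 1 lower member, MGA, was called by DESeq2, 1, again MGA (adjusted p = 0.00595, edgeR), with the replicate block, and 0 to 1 with 1 library left out, where the lone library of an arm is assumed to vary like the other group. Over the lists, where the main test called 0, DESeq2 called 7 higher and 4 lower, no filter 1 higher, the replicate block 3 higher and 1 lower, the GC and length correction 1 higher and 2 lower, and leaving out 1 library 0 to 2 higher and 0 to 2 lower. The block called MGA, ARRDC4, IPO4, CDKN1A and GADD45A with a larger SE than in the main fit (for MGA 0.29 against 0.21). The cause of these shifts was not tested. Same-numbered libraries deviated in opposite directions (Pearson r -0.18 over 14062 genes), and a replicate block with crossed numbers, chosen after seeing the data, called 454 higher and 512 lower genes, 1 higher and 1 lower member, and 16 higher and 10 lower list genes.

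Changes near 0 turned sign: MXD1 was at 0.0844 with the GC and length correction and 0.0621 with the replicate block added to it, and with 1 library left out MAX ranged from -0.0891 to 0.343, MXD1 from -0.269 to 0.0238 and MXD4 from -0.130 to 0.0718 (log2). MYC, MXI1, MXD3, MNT and MGA kept their sign over these 12 settings. With the longest transcript as length, MYC over MAX was 0.549 in DMSO and 0.281 in HJ-23, and MGA over MAX 0.226 and 0.0912, since the lengths of MAX and MGA differ. With 206 to 549 counts per library MYC had the lowest DMSO level of the tested members in CPM and the largest SE.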
